A study of Mus musculus with 5 samples.

Results

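The integrin and laminin subunits are the genes that encode the chains of the integrins, the receptors by which cells hold on to matrix and to each other, and of the laminins, the trimeric proteins around which basement membranes are built. They were chosen by gene symbol alone, and 37 of the 55276 rows of the table carried such a symbol, 26 of them integrin subunits and 11 laminin chains. They were measured in cells labelled PMN-MDSC (polymorphonuclear myeloid-derived suppressor cells, immature cells of the neutrophil lineage that dampen immune responses) from wild-type (WT) mice. The tumor group held 2 libraries, numbered 2 and 3 in their titles, and the lung group held 3 libraries, numbered 1 to 3. Both groups shared the WT genotype and no treatment other than the tissue was labelled. The labels name neither the markers of the sort nor the strain, age or tumor model, and do not say whether each library is a separate animal. The p-values therefore measure only how these libraries vary, and that variation may be technical. Values are TPM (transcript levels corrected for transcript length and scaled to the same total in every library), in which levels of different genes can be compared. TPM keeps no depth, so the counting error behind each value is unknown.

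Each integrin pairs an α with a β subunit, and the pair sets what the receptor binds. The leukocyte integrins built on Itgb2 or Itgb7, with Itga4 and Itga9, serve adhesion to endothelium and cell traffic. Pairs of Itga3, Itga6 or Itga7 with Itgb1, and of Itga6 with Itgb4, bind laminin, and the pair of Itga6 and Itgb4 anchors epithelial cells in hemidesmosomes. Itga1, Itga2, Itga10 and Itga11 pair with Itgb1 to bind collagen, whereas Itgav, Itga5, Itga8 and Itga2b form receptors for the arginine-glycine-aspartate (RGD) motif of fibronectin, vitronectin and related proteins. A laminin is made of an α, a β and a γ chain, encoded by Lama, Lamb and Lamc genes, and Lama3 and Lamb3 belong to the laminin of epithelial hemidesmosomes. Neutrophils are known for high levels of the pairs of Itgb2 with Itgal (LFA-1) and with Itgam (Mac-1).

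The libraries differed in more than these subunits. Markers of neutrophils were all lower in tumor (10 of 10 called), with summed levels of 1030 and 3601 TPM in the tumor libraries and 35237 to 60351 TPM in the lung libraries. All 20 pan-leukocyte markers were lower as well, at 831 and 2273 TPM in tumor and 16556 to 17892 TPM in lung. Of 11 epithelial markers 10 were higher in tumor, where they summed to 6471 and 6497 TPM, against 56.4 to 119 TPM in lung. Epcam, an epithelial adhesion molecule, stood at 257 and 248 TPM in tumor and at 5.44, 2.10 and 2.95 TPM in lung, and Ptprc (CD45), carried by nearly all leukocytes, stood at 18.5 and 75.3 TPM in tumor and at 842, 926 and 959 TPM in lung. The tumor libraries thus went against the PMN-MDSC label in these markers, and they are called tumor libraries by their label here. Markers of lung epithelium went the other way from the epithelial markers, with 5 of 6 called lower in tumor. They summed to 15.9 and 7.06 TPM in tumor and to 132 to 446 TPM in lung. Those 5 averaged at least 1 TPM in lung alone, so they could be tested only by being higher there. Likewise Elf3, among the epithelial markers, could be tested only by being higher in tumor. Mitochondrially encoded transcripts took 9.01% and 15.1% of TPM in tumor and 2.67% to 4.40% in lung. In bulk RNA, fewer cells of a type and less RNA per cell cannot be told apart, and what part the other cell types' transcripts had in the differences below was not tested.

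Laminins and their receptors stood high in tumor and leukocyte integrins stood high in lung. Differences were tested with limma on log2(TPM + 1) across the 16387 genes that averaged at least 1 TPM, and a called gene had an adjusted p (Benjamini-Hochberg, over all tested genes) under 0.05 together with a fold of 1.5 or more on that scale. Of the 37 members 30 passed that filter, 24 of them in both groups, 5 through tumor alone (Itga7, Itga10, Itgb6, Lama3 and Lama4) and 1 through lung alone (Itgad). The last 6 could pass only by being higher in that group. Called higher in tumor were 18 members and called lower were 7, while 31.6% of all tested genes were called higher and 27.0% lower (58.6% in either direction). The median difference was 1.20 over all 37 members and 0.018 over all tested genes, on the log2(TPM + 1) scale. The tumor libraries lay wholly above the lung libraries for 20 of the 37 members, wholly below for 11, and overlapped them for 6. Among all tested genes 39.9% lay wholly above and 35.7% wholly below. Without tumor replicate 2 the calls over all genes went down to 3314 higher and 2900 lower, compared with 5178 and 4431 with every library, while members stood at 15 higher and 7 lower. No alternative setting turned the direction of a called member.

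**Figure D1:**
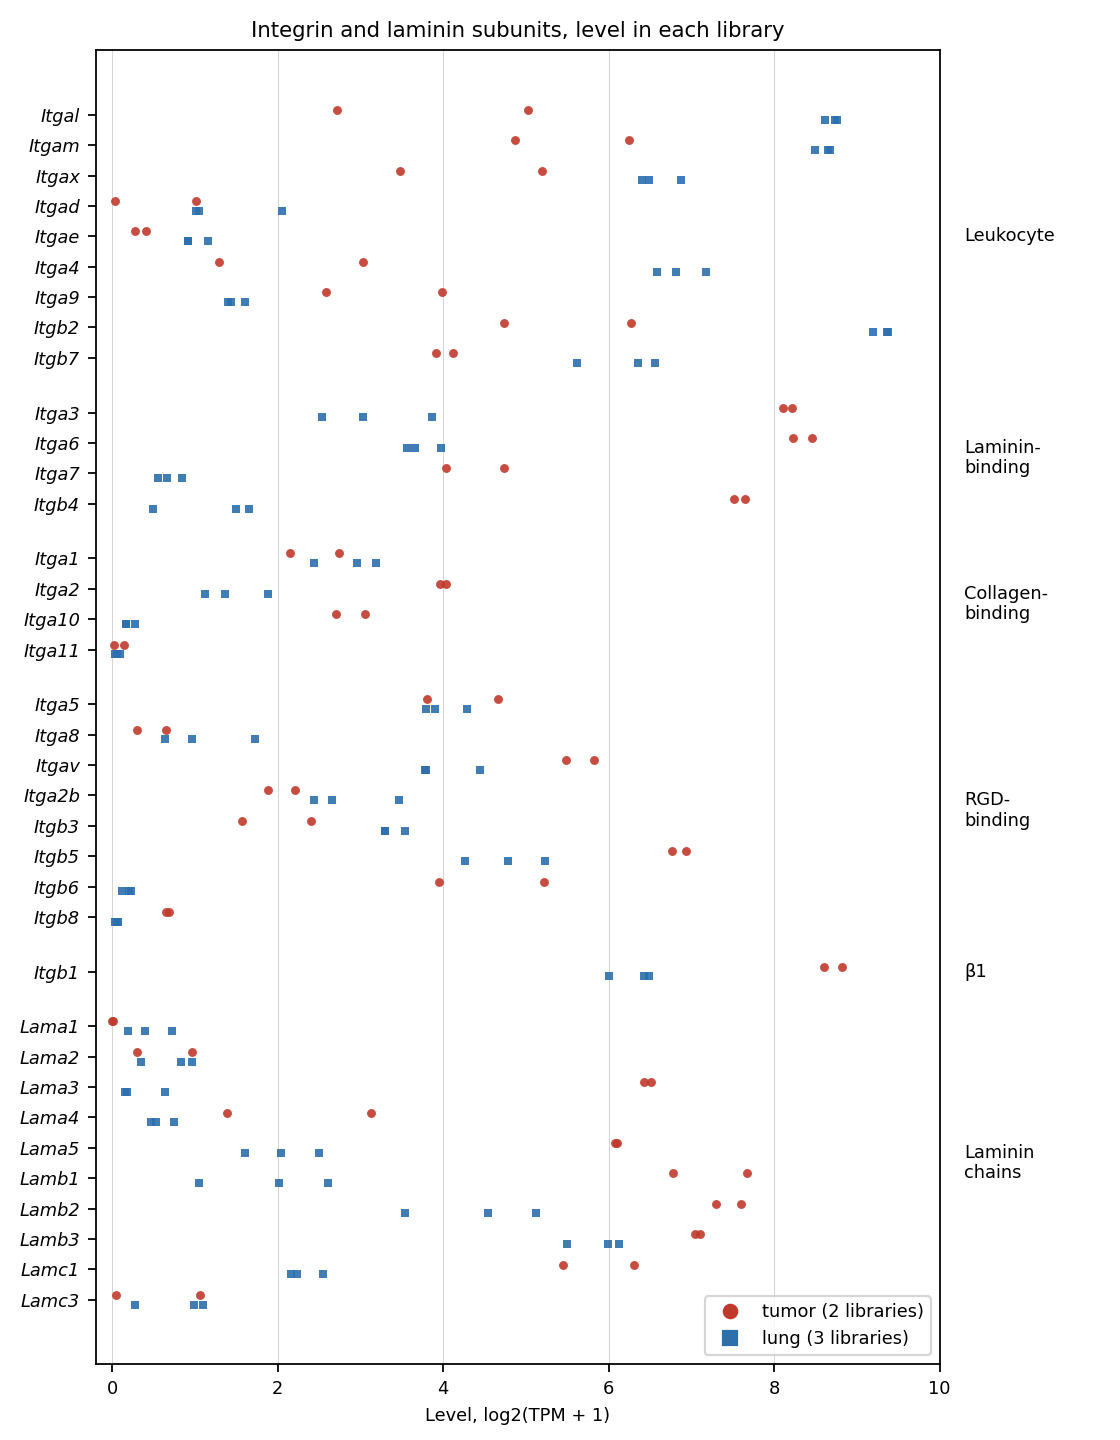
Level of the integrin and laminin subunits described, in each library, in log2(TPM + 1), with the 2 tumor libraries and the 3 lung libraries as points and the members grouped by class. Leukocyte integrin subunits other than Itga9 sit lower in tumor, and the laminin-binding integrin subunits sit higher in tumor.

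**Figure D2:**
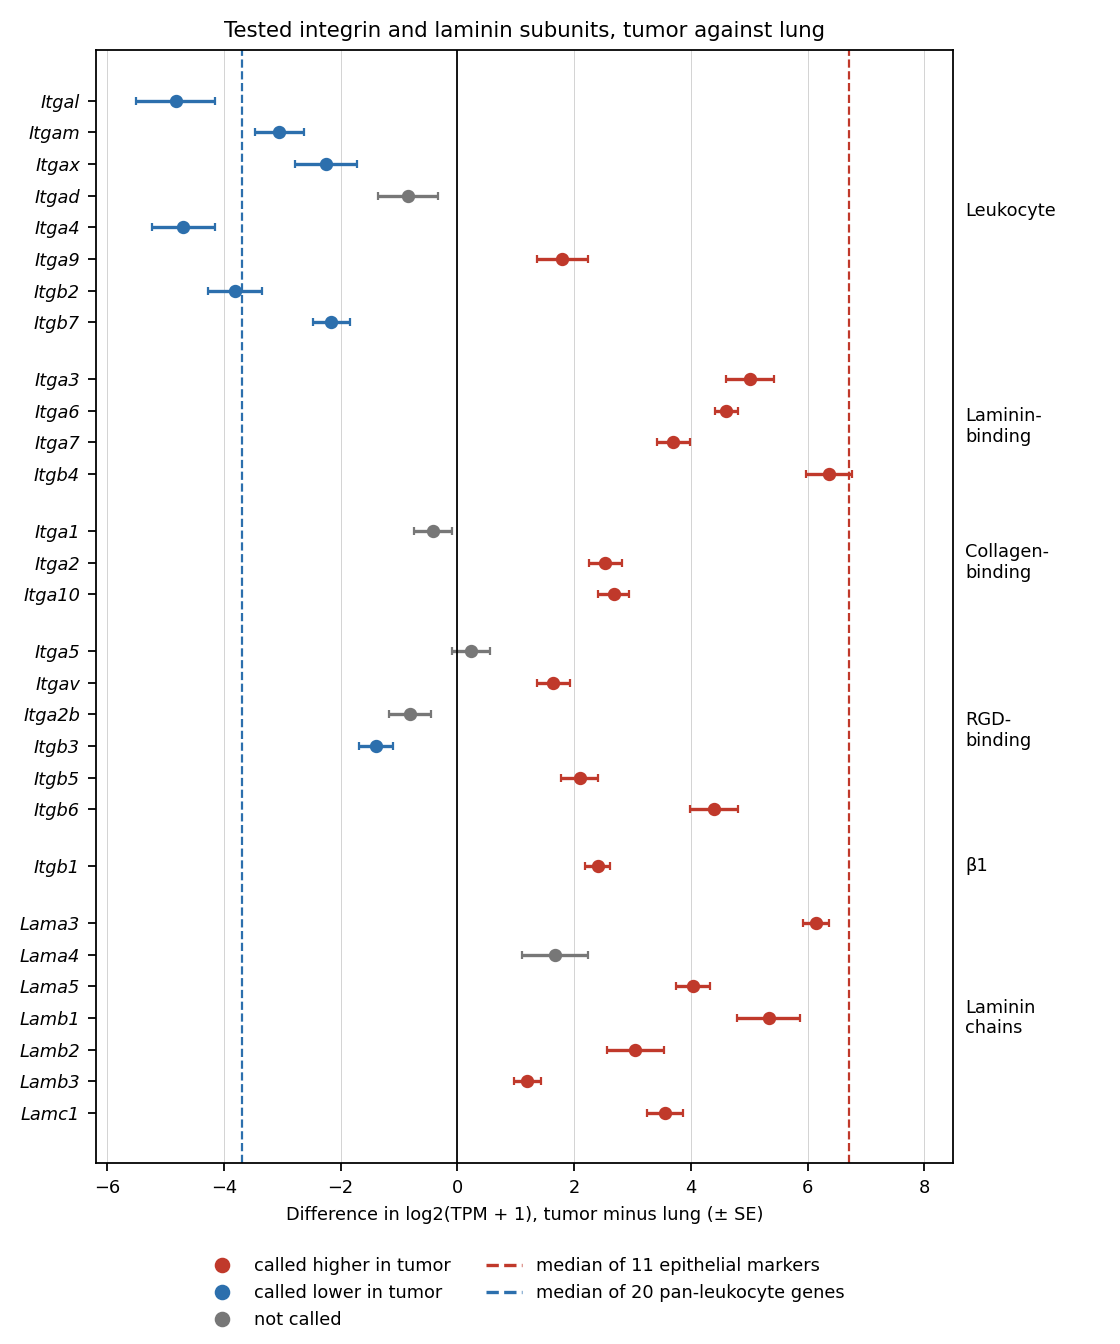
Difference in log2(TPM + 1), tumor minus lung, for the tested members described, with the standard error as bars, the colour giving the limma call and dashed lines at the median of 11 epithelial markers (6.71) and of 20 pan-leukocyte markers (-3.69). Itgb4 lies farthest to the right of the integrin subunits drawn (6.37) and Itgal farthest to the left (-4.83).

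Among the leukocyte integrins, 6 of 9 members were called lower in tumor, 1 (Itga9) was called higher, 1 (Itgad) was not called and 1 (Itgae) was too low to test. Their summed level was 93.7 and 254.9 TPM in tumor and 1627, 1728 and 1843 TPM in lung. Itgb2, the β subunit shared by LFA-1 and Mac-1, stood at 25.6 and 76.5 TPM in tumor and at 583, 659.9 and 665 TPM in lung. The groups did not overlap, and the difference was -3.81 ± 0.47 (SE; limma adjusted p = 0.00253). Itgal, the α subunit of LFA-1 that binds ICAM proteins, stood at 5.60 and 31.5 TPM in tumor and at 391, 431 and 425 TPM in lung. Every tumor library lay far below every lung library, by -4.83 ± 0.67 on the log2(TPM + 1) scale (limma adjusted p = 0.00359). Itgam (CD11b), the α subunit of Mac-1 and a general myeloid marker, stood at 28.2 and 74.8 TPM in tumor and at 361, 402 and 408 TPM in lung, a difference of -3.05 ± 0.42 (limma adjusted p = 0.00342). Its groups did not overlap. In the reference annotation Itgam shares 68.7% of its exonic bases with a gene on the same strand, Gm49368, which the authors' counting could split reads with. Gm49368 itself had 0.487 and 4.02 TPM in tumor and 29.0, 30.1 and 37.9 TPM in lung.

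Itga4, which pairs with Itgb1 or Itgb7 and binds VCAM-1 and fibronectin, had 1.45 and 7.18 TPM in tumor and 111, 95.1 and 143 TPM in lung. The tumor values were a small part of the lung values, with a difference of -4.69 ± 0.55 (SE; limma adjusted p = 0.00225). Itgb7, the β subunit of gut-homing lymphocyte integrins, had 16.4 and 14.1 TPM in tumor and 93.5, 48.2 and 80.7 TPM in lung, a difference of -2.16 ± 0.32 (limma adjusted p = 0.00418). B cell markers were called lower for 5 of 5 genes, with summed levels of 1.87 and 6.95 TPM in tumor and 349, 139.9 and 203 TPM in lung, highest in lung replicate 1 and lowest in lung replicate 2 as for Itgb7, and their part in this difference was not tested. The tumor values of Itgb7 were close to each other, unlike those of the other called members of the class, in which tumor replicate 3 was the higher. Itgax (CD11c), known from dendritic cells and macrophages, had 10.2 and 35.8 TPM in tumor and 83.8, 88.5 and 116 TPM in lung. The groups did not overlap, at -2.25 ± 0.53 (limma adjusted p = 0.0175). That call was the least firm of the 6: without tumor replicate 2 the difference was -1.39 (adjusted p = 0.0323), and without lung replicate 2 or 3 the limma adjusted p was 0.0517 or 0.0547. Itga9, which binds tenascin and osteopontin, was the exception, at 5.02 and 14.8 TPM in tumor and 2.06, 1.71 and 1.65 TPM in lung. It was higher in both tumor libraries, by 1.80 ± 0.44 (limma adjusted p = 0.0197), but by 1.11 without tumor replicate 3 (limma adjusted p = 0.0352), and the limma adjusted p was 0.0588 or 0.0565 without lung replicate 2 or 3.

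Itgad (CD11d) lay near the limit of the filter, at 1.02 and 0.0276 TPM in tumor and 1.02, 1.07 and 3.16 TPM in lung, and was not called (-0.85 ± 0.51, limma adjusted p = 0.208). Itgae (CD103) had 0.212 and 0.327 TPM in tumor and 0.892, 0.891 and 1.22 TPM in lung. Itgal, Itgam, Itgax and Itgad lie on the plus strand of mouse chromosome 7 in the GRCm38 build. Itgal spans 127296260 to 127335138. Itgam (128062640 to 128118491), Itgax (128129547 to 128150657) and Itgad (128154376 to 128223816) follow each other directly. The promoter windows of the neighbours Itgam and Itgax are shown because both genes were called lower and lie side by side, and each window holds 250 bases before the RefSeq start and 50 from it on. Capitals mark GAGGAA, a purine-rich core of the PU.1 type, and TGANTCA, an AP-1 type site, searched on both strands.
Itgam, chr7:128062390-128062689, plus strand, GRCm38.p6: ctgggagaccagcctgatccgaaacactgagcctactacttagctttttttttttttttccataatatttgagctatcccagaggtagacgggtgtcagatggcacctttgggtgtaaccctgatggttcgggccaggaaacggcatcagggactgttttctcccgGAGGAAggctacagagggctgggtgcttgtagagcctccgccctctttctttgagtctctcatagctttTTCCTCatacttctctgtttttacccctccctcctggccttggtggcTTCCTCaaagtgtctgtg
Itgax, chr7:128129300-128129599, plus strand, GRCm38.p6: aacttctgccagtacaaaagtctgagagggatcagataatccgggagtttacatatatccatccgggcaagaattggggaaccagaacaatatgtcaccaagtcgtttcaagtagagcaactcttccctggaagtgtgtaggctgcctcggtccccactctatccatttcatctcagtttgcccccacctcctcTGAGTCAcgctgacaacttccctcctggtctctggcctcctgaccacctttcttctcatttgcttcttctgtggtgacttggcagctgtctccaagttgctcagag
The Itgam window held 3 matches to GAGGAA, at -84, -15 and 33 from the start, and none to TGANTCA, and the Itgax window held 1 match to TGANTCA at -56 and none to GAGGAA. Of all 32851 promoter windows of this length, 28.3% held GAGGAA and 7.81% held TGANTCA. Of the 37 members 23 had such windows, 26 in all, of which 14 held the first motif and 3 the other. The first motif was in 8 of 15 windows of members called higher and in 2 of 4 windows of members called lower. A match is a description of letters and says nothing about binding.

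Set against Ptprc, the leukocyte integrin subunits did not stand in the same proportion in tumor as in lung. These ratios were chosen after the values had been seen and carry no test. Which cells carried each subunit's transcripts was not tested either, so a ratio need not describe leukocytes. Per unit of Ptprc, Itgb2 stood at 1.38 and 1.02 in tumor and at 0.692, 0.712 and 0.693 in lung. Itgam stood at 1.53 and 0.993 in tumor and at 0.428, 0.433 and 0.425 in lung. Both were above every lung library although the TPM levels were below. Ptprc had the largest fall of the 20 pan-leukocyte markers, however, and for Itgb2 the direction depended on the marker chosen. As a percent of the summed pan-leukocyte level, Itgb2 was lower in tumor, at 3.08% and 3.36%, against 3.41%, 3.69% and 4.02% in lung. Set against each of the 20 markers in turn, Itgb2 was higher in both tumor libraries for 7, lower for 8 and overlapping for 5. Itgam was higher against 14 of the 20 and lower against 2, and took 3.39% and 3.29% of the summed level in tumor and 2.11%, 2.24% and 2.46% in lung. Itgax per Ptprc was 0.550 and 0.475 in tumor and 0.0996, 0.0956 and 0.121 in lung, and Itga9 per Ptprc was 0.272 and 0.197 in tumor and 0.00244, 0.00184 and 0.00172 in lung. Itgb7 per Ptprc was 0.890 and 0.187 in tumor and 0.111, 0.0520 and 0.0841 in lung, also higher in tumor. The ratio went the other way for Itgal, at 0.303 and 0.418 in tumor and 0.465, 0.465 and 0.443 in lung, and for Itga4, at 0.0783 and 0.0954 in tumor and 0.132, 0.103 and 0.149 in lung. Itgal per Itgb2 was lower in tumor (0.219 and 0.412) than in lung (0.671, 0.654 and 0.639), whereas Itgam per Itgb2 was higher (1.10 and 0.978 in tumor, 0.619, 0.608 and 0.613 in lung). Against the 20 markers in turn, Itga9 was higher in tumor for 20, Itgax for 17 and Itgb7 for 13, and none of these was lower for any, while Itgal was lower for 18 and Itga4 for 19 and neither was higher for any. Beside these ratios, 3 macrophage markers (C1qa, C1qb and C1qc) of 7 were called higher and 3 (Adgre1, Csf1r and Cd68) lower in tumor, with a summed level of 429.9 and 1007 TPM in tumor and 654 to 746 TPM in lung.

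**Figure D3:**
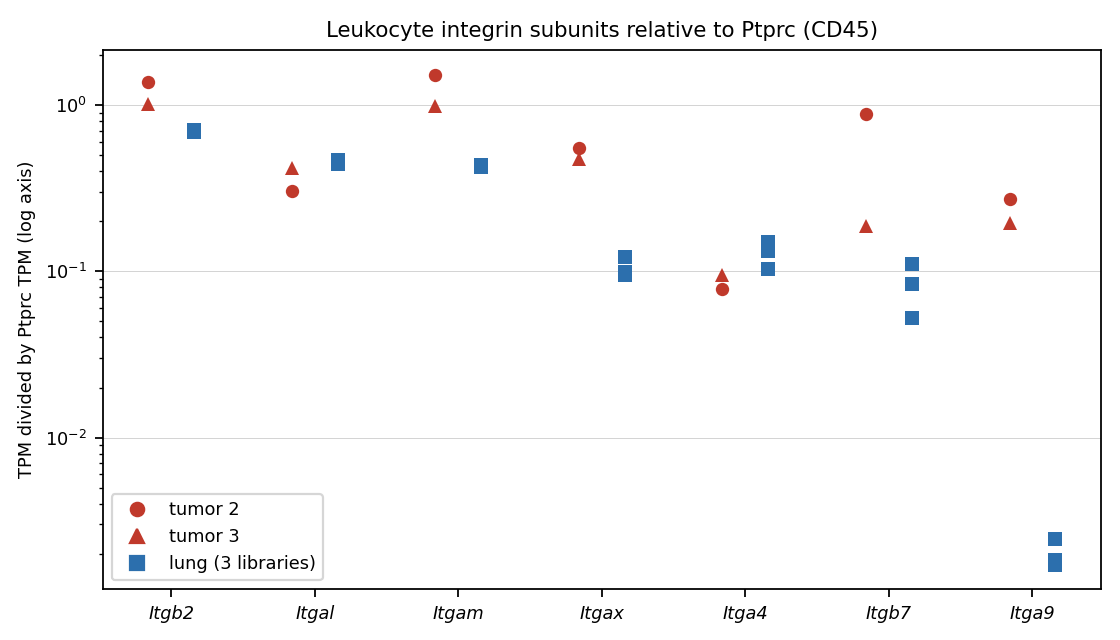
Leukocyte integrin levels divided by the Ptprc level of the same library, on a log axis, with tumor and lung libraries as points. Itgb2, Itgam, Itgax, Itgb7 and Itga9 lie higher per Ptprc in tumor, and Itgal and Itga4 lie lower; for Itgb2 the direction turns when the summed level of the 20 pan-leukocyte markers takes the place of Ptprc.

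All 4 laminin-binding integrin subunits were called higher in tumor, with summed levels of 856 and 787 TPM in tumor and 30.6, 17.4 and 20.9 TPM in lung. Itga6 stood at 352 and 298 TPM in tumor and at 14.8, 11.7 and 10.8 TPM in lung. The groups were far apart, at 4.61 ± 0.19 (SE; limma adjusted p = 0.000901). Itgb4, whose long cytoplasmic tail links to keratin through plectin, stood at 182 and 199 TPM in tumor and at 1.83, 0.409 and 2.14 TPM in lung, a difference of 6.37 ± 0.39 (limma adjusted p = 0.000969). The largest lung value was a small fraction of the lowest tumor value. Itga3, the partner of Itgb1 in binding epithelial laminins, stood at 296 and 274 TPM in tumor and at 13.6, 4.78 and 7.18 TPM in lung, a difference of 5.02 ± 0.41 (limma adjusted p = 0.00128). Itga7, best known from muscle, stood at 25.7 and 15.4 TPM in tumor and at 0.468, 0.589 and 0.797 TPM in lung, a difference of 3.70 ± 0.28 (limma adjusted p = 0.00121). Each group of libraries was separate from the other in all 4 genes. The ratio of Itga6 to Itgb4 was 1.93 and 1.49 in tumor and 8.08, 28.5 and 5.05 in lung. Per unit of Epcam, Itga6 was lower in tumor, at 1.37 and 1.20, against 2.71, 5.54 and 3.66 in lung, and so was Itga3, at 1.15 and 1.10 in tumor and 2.49, 2.27 and 2.43 in lung. Itgb4 per Epcam overlapped between groups, at 0.710 and 0.802 in tumor and 0.336, 0.195 and 0.725 in lung. For Itga3 and Itga6 the direction depended on the epithelial marker chosen. Mean TPM was 33.6-fold higher in tumor for Itga3 and 26.2-fold for Itga6. That fold was 72.2 for Epcam, 27.3 for Cdh1 and from 2.27 (Krt5) to 292 (Krt14) over the 11 epithelial markers. Which cells carried these transcripts was not tested. Itga6 lies on chromosome 2 (71745616 to 71858416, plus strand), Itgb4 on chromosome 11 (115974709 to 116008412, plus strand) and Itga3 on chromosome 11 (95044474 to 95076801, minus strand).

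The β subunit Itgb1, shared by the laminin, collagen and several RGD receptors, was the most abundant member of the integrins in tumor, at 450.2 and 387 TPM, against 85.1, 62.9 and 88.9 TPM in lung. It was higher in tumor by 2.40 ± 0.21 (limma adjusted p = 0.00141). In tumor the order of integrin levels after it was Itga6, Itga3, Itgb4 and Itgb5, each lower in both libraries than the one before. In lung Itgb2 stood first, above Itgal and Itgam, whose ranges overlapped, and Itga4, Itgax, Itgb1 and Itgb7 followed with overlapping ranges. Of the summed β subunit level Itgb2 took 3.06% and 9.53% in tumor and 72.1%, 82.6% and 76.1% in lung, that is 6.29% ± 4.58 (SD, n = 2) in tumor and 76.9% ± 5.33 (SD, n = 3) in lung. The exact permutation test of libraries gave p = 0.1, the smallest that 10 splits allow. Over the 10 shares that were tested together the adjusted value was 0.111. Itgb1 took 53.8% and 48.3% in tumor and 10.5%, 7.88% and 10.2% in lung, and Itgb4 took 21.8% and 24.8% in tumor and 0.226%, 0.0513% and 0.245% in lung (exact p = 0.1 each, adjusted 0.111). Of the summed α subunit level, laminin-binding α subunits took 80.4% and 70.3% in tumor and 2.82%, 1.58% and 1.60% in lung, while leukocyte α subunits took 6.17% and 19.7% in tumor and 93.2%, 94.6% and 93.4% in lung. All of these shares lay apart between groups, and the design cannot bring a single comparison under 0.05.

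**Figure D4:**
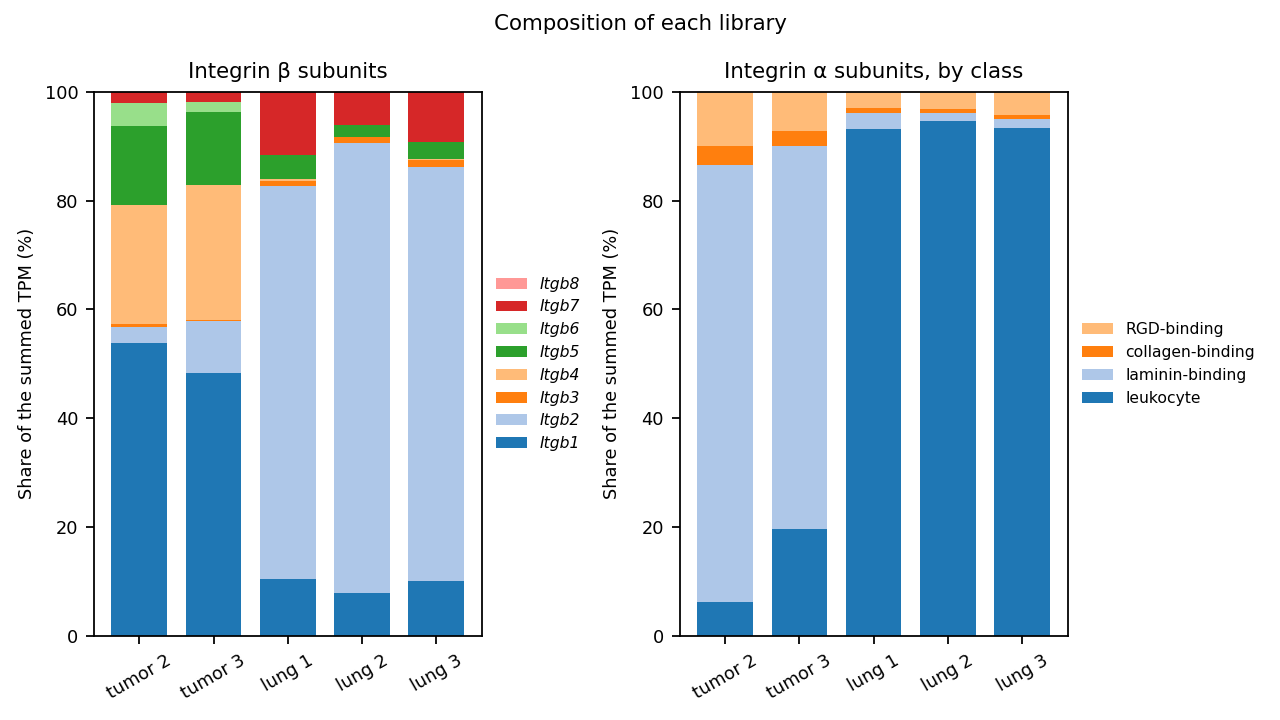
Percent of the summed β integrin subunit TPM held by each gene (left panel) and of the summed α integrin subunit TPM held by each class (right panel) in each library, as stacked bars with tumor left of lung. Itgb2 holds 3.06% and 9.53% of the β subunit level in tumor and 72.1% to 82.6% in lung, and laminin-binding α subunits hold 80.4% and 70.3% of the α subunit level in tumor and 1.58% to 2.82% in lung.

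Of the 8 RGD-binding integrin subunits 3 were called higher, 1 was called lower, 2 were not called and 2 were too low to test. Their summed level was 246 and 185 TPM in tumor and 76.2, 61.6 and 87.8 TPM in lung. Itgb6, which with Itgav forms a receptor that activates latent TGF-β in epithelia, stood at 36.1 and 14.5 TPM in tumor and at 0.0859, 0.172 and 0.147 TPM in lung, a difference of 4.40 ± 0.41 (limma adjusted p = 0.00154). Itgb5, a partner of Itgav in binding vitronectin, stood at 121 and 108 TPM in tumor and at 36.6, 18.2 and 26.6 TPM in lung, a difference of 2.09 ± 0.31 (limma adjusted p = 0.00429). Itgav itself stood at 55.8 and 43.7 TPM in tumor and at 12.8, 12.9 and 20.8 TPM in lung, higher by 1.65 ± 0.28 (limma adjusted p = 0.00596). Without tumor replicate 2 the Itgav difference was 1.47 and the call was lost, whereas the call was kept without tumor replicate 3. These 3 subunits had no overlap between groups.

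Itgb3 and Itga2b, which together form the platelet fibrinogen receptor, went the other way in level. Itgb3 had 4.28 and 1.98 TPM in tumor and 8.82, 8.83 and 10.6 TPM in lung, and was called lower (-1.39 ± 0.30, limma adjusted p = 0.0127). Itga2b had 3.62 and 2.68 TPM in tumor and 4.42, 5.30 and 10.1 TPM in lung. It lay below lung in both libraries but was not called (-0.81 ± 0.37, limma adjusted p = 0.113), while centring on the median of tested genes or quantile normalization called it lower (limma adjusted p = 0.0464 and 0.0458). Beside them the platelet markers were mixed: of 8 markers 5 were tested, Pf4 and Ppbp were called higher and Gp9 and Clec1b lower. Gp9 and Clec1b passed the filter through lung alone, so they could be tested only by being higher there. The 8 markers summed to 150.0 and 159 TPM in tumor and 21.7 to 30.3 TPM in lung. Most of the tumor sum was Pf4 (104 and 105 TPM) and Ppbp (45.0 and 51.9 TPM). The other 6 markers lay wholly below lung in tumor. Itga5, the fibronectin receptor subunit, had 24.4 and 12.9 TPM in tumor and 12.9, 14.0 and 18.6 TPM in lung and was not called (0.24 ± 0.32, limma adjusted p = 0.548). Its groups overlapped. Itga8 had 0.232 and 0.574 TPM in tumor and 0.560, 2.30 and 0.947 TPM in lung. Itgb8, which activates TGF-β with Itgav, had 0.613 and 0.573 TPM in tumor and 0.0443, 0.0502 and 0.0218 TPM in lung, and both of these were too low for the main test.

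Of the 4 collagen-binding subunits Itga2 and Itga10 were called higher in tumor, Itga1 was not called and Itga11 was too low to test. Itga2, the α subunit of the platelet and epithelial collagen receptor, had 15.3 and 14.6 TPM in tumor and 1.19, 2.68 and 1.58 TPM in lung, a difference of 2.54 ± 0.28 (limma adjusted p = 0.00201). Itga10, known from cartilage, had 7.32 and 5.54 TPM in tumor and 0.207, 0.124 and 0.125 TPM in lung, a difference of 2.68 ± 0.26 (limma adjusted p = 0.00166). In the annotation 33.5% of its exonic bases are shared with Gm42957 on the same strand. Itga1 had 5.66 and 3.43 TPM in tumor and 8.12, 4.42 and 6.78 TPM in lung, with overlapping groups (-0.42 ± 0.32, limma adjusted p = 0.305). Itga11 stayed at or below 0.103 TPM in every library.

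Among the 10 laminin chains described here 6 were called higher in tumor and none was called lower. Of the others, Lama4 was not called and Lama1, Lama2 and Lamc3 were too low to test. The summed level of these 10 chains was 772 and 599 TPM in tumor and 112, 90.6 and 78.8 TPM in lung. Lama3, an α chain of epithelial laminin, stood at 90.2 and 85.4 TPM in tumor and at 0.563, 0.136 and 0.119 TPM in lung, higher by 6.14 ± 0.23 (limma adjusted p = 0.000901). It was low in every lung library and abundant in both tumor libraries. Lamb3, a β chain of epithelial laminin, stood at 131 and 136 TPM in tumor and at 62.6, 69.0 and 44.1 TPM in lung, so this chain was abundant in both groups. Its difference was 1.20 ± 0.23 (limma adjusted p = 0.00915), and without tumor replicate 2 or 3 it was 1.23 or 1.17 (limma adjusted p = 0.0613 or 0.0545). The ratio of Lamb3 to Lama3 was 1.45 and 1.60 in tumor and 111, 506 and 372 in lung. Per unit of Epcam, Lama3 stood at 0.351 and 0.344 in tumor and at 0.104, 0.0648 and 0.0402 in lung, and Lamb3 stood at 0.510 and 0.548 in tumor and at 11.5, 32.8 and 15.0 in lung. These ratios were chosen after the values had been seen.

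Lama5, the α chain of the most widespread adult laminins, stood at 66.6 and 67.6 TPM in tumor and at 3.11, 2.04 and 4.67 TPM in lung, higher by 4.04 ± 0.30 (limma adjusted p = 0.00116). Lamb1 stood at 203 and 109 TPM in tumor and at 5.12, 1.07 and 3.05 TPM in lung (5.33 ± 0.54, limma adjusted p = 0.00175). Lamc1, the γ chain of most laminins, stood at 78.0 and 42.7 TPM in tumor and at 3.69, 4.83 and 3.49 TPM in lung (3.56 ± 0.31, limma adjusted p = 0.0014). In each of these 3 genes the groups were well apart. Lamb2 stood at 194 and 156 TPM in tumor and at 33.9, 10.6 and 22.2 TPM in lung, higher by 3.05 ± 0.49 (limma adjusted p = 0.00519), and by 2.90 without tumor replicate 2 (limma adjusted p = 0.0584). Lama4, found around vessels and in mesenchyme, had 7.75 and 1.62 TPM in tumor and 0.676, 0.383 and 0.449 TPM in lung and missed the limit (1.68 ± 0.56, limma adjusted p = 0.0509), whereas 7 of 14 alternatives called it (limma adjusted p from 0.00835 to 0.0484), among them the fit without tumor replicate 3 (2.55). Lamb1, Lamc1 and Lama4 were higher in tumor replicate 2 than in tumor replicate 3. So were Lamb2 and Lama3, by less, and Lama2 and Lamc3 at low levels, whereas Lamb3 and Lama5 were not. Of 8 fibroblast and pericyte markers 6 were called higher in tumor, with summed levels of 1203 and 227 TPM in tumor and 17.1 to 23.7 TPM in lung. Most of that sum was Col3a1 (917 and 159 TPM in tumor), whereas the pericyte marker Rgs5 had 6.84 TPM in tumor replicate 2 and 9.44 TPM in tumor replicate 3. Of the 6 fibroblast and pericyte markers called higher, Pdgfra and Rgs5 passed the filter through tumor alone. Both could be tested only by being higher there. The part of these cells' transcripts in the laminin levels was not tested. Lama1 (0 and 0.00352 TPM in tumor, 0.318, 0.653 and 0.145 TPM in lung), Lama2 (0.948 and 0.235 TPM in tumor, 0.953, 0.776 and 0.279 TPM in lung) and Lamc3 (1.09 and 0.0296 TPM in tumor, 0.993, 1.13 and 0.210 TPM in lung) stayed at or below 1.13 TPM in every library.

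Among the chains described, Lamb2, Lamb1 and Lamb3 stood highest in tumor with overlapping ranges, and Lama3 followed, then Lama5 and Lamc1. In lung Lamb3 stood above them all, Lamb2 followed, and the others stood at 5.12 TPM or lower. Lamb3 and Lama5 are shown because Lamb3 was the most abundant chain described in lung and the Lama5 window had the most G and C of the members' 26 windows, and both windows are written as above. Lamb3 lies on chromosome 1 (193207699 to 193343878, plus strand) and Lama5 on chromosome 2 (180176373 to 180225859, minus strand).
Lamb3, chr1:193301744-193302043, plus strand, GRCm38.p6: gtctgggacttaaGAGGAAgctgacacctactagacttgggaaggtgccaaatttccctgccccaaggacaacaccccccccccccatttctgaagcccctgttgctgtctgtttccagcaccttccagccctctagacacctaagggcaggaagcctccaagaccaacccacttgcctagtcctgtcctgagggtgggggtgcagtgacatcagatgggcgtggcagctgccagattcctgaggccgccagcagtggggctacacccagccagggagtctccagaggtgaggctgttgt
Lama5, chr2:180225810-180226109, minus strand, GRCm38.p6: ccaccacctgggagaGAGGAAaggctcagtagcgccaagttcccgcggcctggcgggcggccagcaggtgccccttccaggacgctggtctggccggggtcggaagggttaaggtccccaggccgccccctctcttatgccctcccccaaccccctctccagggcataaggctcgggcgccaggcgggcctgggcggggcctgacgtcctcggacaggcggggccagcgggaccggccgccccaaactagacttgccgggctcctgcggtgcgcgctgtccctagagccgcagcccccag
Lamb3 held 1 GAGGAA, at -237, with 59.3% G and C and 2 CpG dinucleotides, and Lama5 held 1 GAGGAA, at -235, with 72.7% G and C and 24 CpG dinucleotides. The median over all 32851 windows was 52.7% G and C and 7 CpG dinucleotides. A second RefSeq start of Lamb3 lies downstream and is not printed.

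The genes through which integrins act on the cell interior moved in both directions, as did the tested genes as a whole. Over all tested genes 31.6% were called higher and 27.0% lower, the shares to set beside the counts of each list below. Of 16 genes of integrin activation 4 were called higher and 10 lower in tumor, with a median difference of -0.73. Rasgrp2, the Rap1 exchange factor of platelets and neutrophils, stood at 2.34 and 13.3 TPM in tumor and at 304.6, 331 and 297 TPM in lung (-5.50 ± 0.62, limma adjusted p = 0.00212), and Fyb, an adaptor of leukocyte integrins, fell by 3.23 (limma adjusted p = 0.00131). Of the 3 kindlins, which bind β subunit tails, 1 was called lower, 1 higher and 1 was not called. Fermt3, the kindlin of blood cells, had 8.43 and 20.4 TPM in tumor and 75.8, 72.4 and 98.6 TPM in lung (-2.54 ± 0.39, limma adjusted p = 0.0046). Fermt1, the kindlin of epithelia, had 12.1 and 11.6 TPM in tumor and 0.166, 0.782 and 0.0679 TPM in lung (3.30 ± 0.31, limma adjusted p = 0.00154). Fermt2, the broadly expressed kindlin, had 50.3 and 32.7 TPM in tumor and 28.2, 12.0 and 22.2 TPM in lung (1.01 ± 0.41, limma adjusted p = 0.0857). The adaptors Skap1 and Skap2 were both called, Skap1 being higher by 2.52 and Skap2 lower (-2.19), with limma adjusted p = 0.00151 and 0.00104. Of the 4 activation genes called higher, Tln2, Fermt1 and Skap1 passed the filter on low values through tumor alone. They could thus be tested only by being higher there. Of 23 adhesion complex genes 10 were called higher and 10 lower, with a median of -0.14. Src, a kinase at matrix adhesions, had 84.9 and 73.0 TPM in tumor and 1.94, 0.850 and 0.913 TPM in lung (5.19 ± 0.27, limma adjusted p = 0.000901), whereas Zyx, a protein of mature adhesions, differed by -3.07 (limma adjusted p = 0.00104).

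Hemidesmosome and laminin receptor partners were higher for 5 of 6 genes (median 1.57), and Col17a1 was not called. Cd151, a tetraspanin that associates with laminin-binding integrins, stood at 182 and 166 TPM in tumor and at 27.9, 19.6 and 20.9 TPM in lung (2.89 ± 0.20, limma adjusted p = 0.00108). Dag1, dystroglycan, Dst and Plec were higher by 2.20, 1.82 and 1.31 (limma adjusted p = 0.00125, 0.00237 and 0.00441). Of 11 basement membrane partners of laminin 8 were called higher, 1 (Nid1) lower, 1 (Nid2) was not called and Col4a6 was too low to test, with a median of 2.13. Col18a1, the collagen that yields endostatin, stood at 302 and 245 TPM in tumor and at 2.31, 1.77 and 1.62 TPM in lung (6.56 ± 0.19, limma adjusted p = 0.000901). Agrn, agrin, and Col7a1, the anchoring fibril collagen, were higher by 2.77 and 4.63 (limma adjusted p = 0.000901 each). Of 18 listed integrin ligands 15 were found and 12 tested, 8 called higher and 2 lower, with a median of 1.50. Fn1, fibronectin, stood at 1286 and 1396 TPM in tumor and at 84.9, 75.6 and 97.0 TPM in lung (3.96 ± 0.17, limma adjusted p = 0.000901). Icam1 and Icam2, which LFA-1 binds, were the 2 called lower (-1.60 and -3.88), Icam2 having passed the filter through lung alone. Vcam1, the gene of VCAM-1, was called higher, at 7.04 and 18.2 TPM in tumor and 2.07, 1.68 and 1.53 TPM in lung. Endothelial markers were called lower for 9 of 9 genes and pan-leukocyte markers for 20 of 20. The part of these cell types in the differences of Icam1 and Icam2 was not tested.

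**Figure D5:**
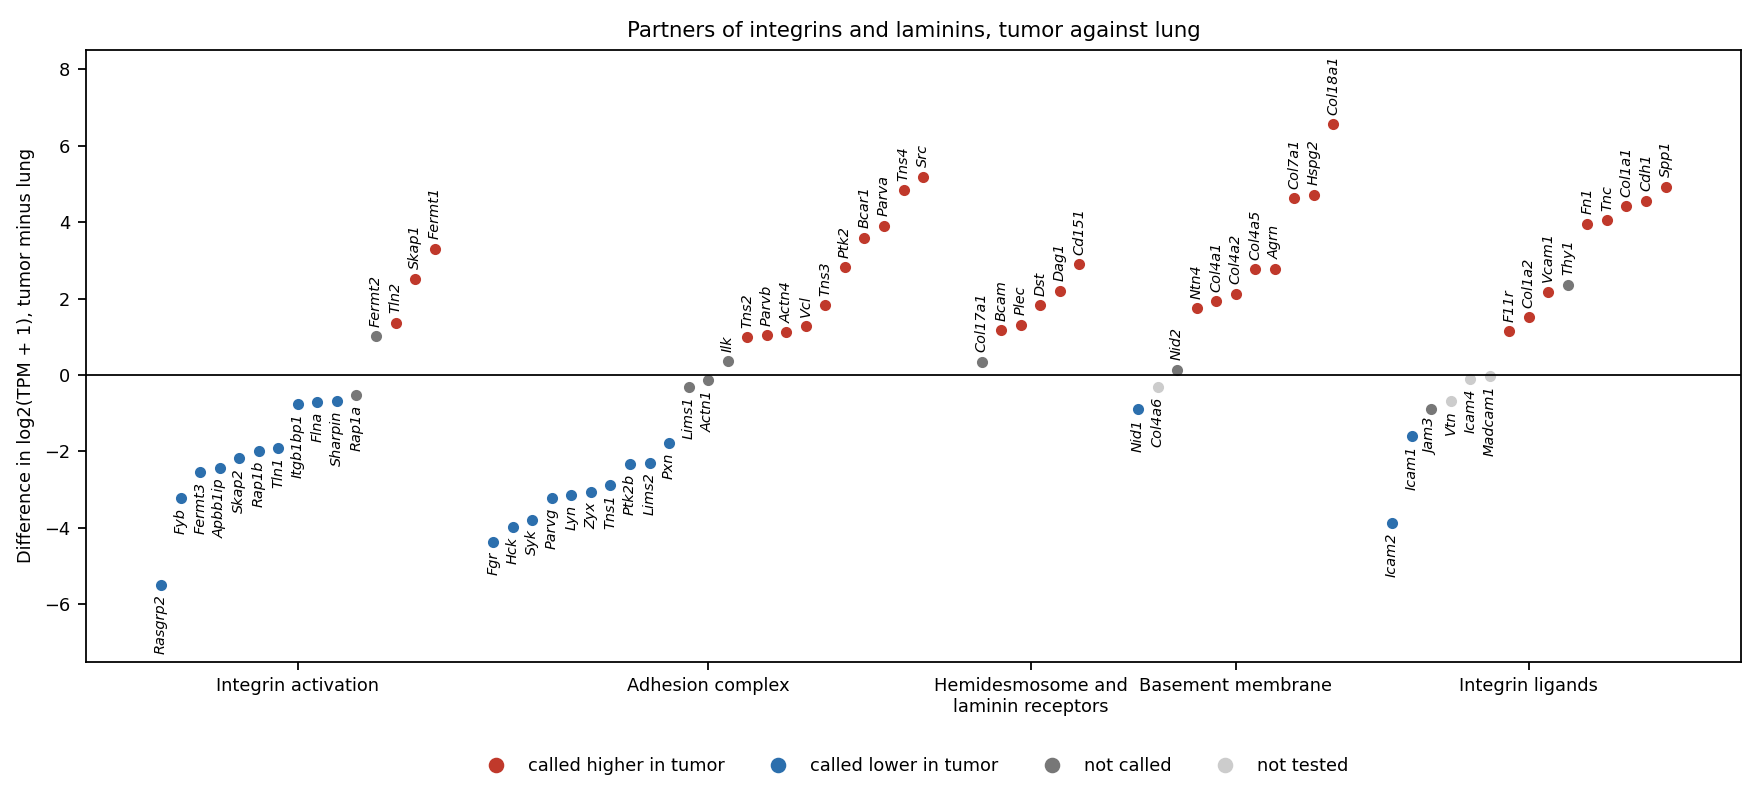
Difference in log2(TPM + 1), tumor minus lung, for listed genes of integrin activation, adhesion complexes, hemidesmosomes, basement membrane and integrin ligands, sorted within each list and coloured by the limma call. Of the genes drawn, Fermt1, Src, Cd151, Col18a1 and Spp1 lie highest in their lists, and Rasgrp2 lies lowest of all.

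The authors' deposited table held few rows under a false discovery rate of 0.05, and fewer members than the 25 called with limma here. Of its 34956 rows with a false discovery rate, 223 were under 0.05, and these included 2 members, Lama5 (0.0144, natural log fold 3.02, tumor over lung) and Itga2 (0.0471, natural log fold 2.11). In the same authors' deposited table Itgb2 had a false discovery rate of 0.0610 and Lama3 of 0.145.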

How the data were processed

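RNA of sorted cells from 2 tumor and 3 lung samples was measured by RNA-seq. The authors deposited TPM made with Salmon 0.9.1 on GENCODE mouse M24 transcripts, per the series' design text, a unit in which every library sums to 1000000. The deposited table also holds the authors' p-values with a false discovery rate, and a natural log fold change, used only as a description. Rows with a spreadsheet date in place of a symbol, 26 in all, were left out and hold 0.0650% to 0.0826% of a library. Depth is unknown because TPM does not keep it.

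The 37 members were found by symbol and all 16387 genes averaging 1 TPM or more were fitted with limma 3.58.1 in R 4.3.3 (lmFit and eBayes with an intensity trend) on log2(TPM + 1), two-sided, adjusted by Benjamini-Hochberg over all tested genes. Calls needed an adjusted p under 0.05 and a 1.5-fold difference. This scale understates changes of low genes. The fit was tested on simulated data. Some results, 1 planned share among them, are not reported here. Shares were compared by an exact permutation test over libraries. Values per library are given for called members and those reaching high levels, and up to 4 called genes of smallest p per list are named. Rasgrp2, Tln2, Fermt1, Fermt3, Icam1 and Vcam1, the ratios, the motifs and the printed promoters were chosen after values had been seen. The members and lists were chosen with earlier results of these data known. Locations and overlaps come from GENCODE M21 on GRCm38, and promoter windows from RefSeq on GRCm38.p6. Alternatives were other pseudocounts, filters, scalings, empirical Bayes settings, a replicate block and leaving out each library.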

Additional observations from a re-analysis of the deposited data

How the results depend on the processing

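Of 475 member results under up to 16 alternatives each, 451 kept direction and side of the threshold, 14 lost the call, 9 gained it and 1 changed direction. Of 25 called members 19 kept direction and call under every alternative. Itgax and Itga9 also lost their calls without moderation (adjusted p = 0.0756 and 0.0731, limma's linear fit). The direction change was Itga5, not called in any of these fits, at -0.20 without tumor replicate 2 (limma adjusted p = 0.619) and 0.67 without tumor replicate 3. Called members numbered 15 to 19 higher and 6 to 8 lower over all alternatives. Leaving out 1 library gave 3314 to 4817 genes higher and 2900 to 4134 lower, compared with 5178 and 4431. The Itgb2 share difference ranged from -73.9 to -67.4 percentage points when 1 library was left out. Centring moved the median difference of all genes to -0.18 and removal of mitochondrially encoded genes to 0.13, compared with 0.018. Without a filter on low values Itgb8 was called (0.62, limma adjusted p = 0.0053). Deviations of same-numbered libraries correlated at 0.0034 and 0.083, but those of 2 tumor libraries mirror each other, so this check cannot tell whether the numbers pair the samples, and the labels do not say that they do. With the replicate block 3662 genes were called higher and 3449 lower, members numbered 15 and 6, and Itga9, Itgav, Itgb3 and Lamb3 had limma adjusted p = 0.074, 0.0595, 0.0777 and 0.0533. The number of libraries (2 and 3), and a depth that TPM does not keep, limit all of these values.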

Other observations

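Lamb3 has 9 transcripts in the GENCODE M21 annotation, 4 of them protein-coding (1029 to 4867 bases) and 5 others (258 to 1240 bases). A short noncoding transcript of Lamb3 starts 121 bases from the start of G0s2, which lies on the opposite strand of chromosome 1 (193272161 to 193273217). G0s2 stood at 66.4 and 191 TPM in tumor and at 345, 192 and 168 TPM in lung. Values per transcript were not analysed here, so which Lamb3 transcripts carried the level in lung was not tested.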
